A study of Oryza sativa and Triticum aestivum and Oryza sativa Japonica Group with 26 samples.

Results

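The short arms of rice chromosomes 4 and 10, taken here as 1.0 to 8.0 Mb of chromosome 4 and 1.0 to 6.5 Mb of chromosome 10, held 5160 of the 355306 peaks in 20 rice peak lists. A peak belonged to an arm when its midpoint lay inside these bounds. Of the 5160 peaks, 4723 came from 18 lists of chromatin immunoprecipitation and sequencing (ChIP-seq) of histone marks and 437 from 2 input lists, which are chromatin sequenced without enrichment. The long arms, 20 to 34 Mb of chromosome 4 and 12 to 22 Mb of chromosome 10, served as the comparison and held 25824 ChIP peaks and 4468 input peaks. The short arms spanned 12.5 Mb together and the long arms 24 Mb. Coordinates are those of the deposited lists, whose genome build is not given in the sources used here.

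All rice libraries came from young panicles of field-grown plants, of the indica cultivar HHZ or the japonica cultivar JZ1560. HHZ had 3 libraries of H3K27me3, 2 of H3K27ac, 2 of H3K4me1, 1 of H3K4me3 and 1 of H3K36me3. JZ1560 had 3 of H3K27me3, 2 of H3K4me1, 2 of H3K4me3, 1 of H3K27ac and 1 of H3K36me3. Each cultivar also had 1 input, whose labels list the H3K27me3 antibody too and whose titles call it an input. The labels do not say that replicates were separate plants, so the p-values below measure the spread between these libraries only, which may be technical. A panicle holds several cell types, and a peak present in few cells cannot be told apart from a weak peak in all of them.

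Heterochromatin is the condensed part of the genome, rich in transposons and poor in transcribed genes, and cytology has long described the short arms of rice chromosomes 4 and 10 as heterochromatic. Textbook roles place H3K4me3 where transcription of active genes begins and H3K27ac on promoters and enhancers in use, and in plants H3K4me1 and H3K36me3 lie over transcribed gene bodies. These 4 are called active marks here. H3K27me3 is laid down by Polycomb proteins over genes that are kept silent, many of them tissue-specific or developmental genes, and in plants it is largely a mark of genes rather than of transposons. None of the lists covers H3K9me2 or DNA methylation, the marks that define plant heterochromatin, so the label can be checked here only by the scarcity of active marks. In bins of 0.5 Mb, H3K36me3 cover was below the lower quartile of all 740 rice bins in 22 of the 25 short-arm bins in HHZ and in 23 of 25 in JZ1560. No short-arm bin was above the genome median for any active mark in either cultivar. Input cover was below its own lower quartile in 19 of the 25 short-arm bins in HHZ and in 23 of 25 in JZ1560. These bin counts thus do not set the active marks apart from unenriched chromatin.

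One library stood apart in these arms. HHZ H3K27me3 replicate 3 had 35.9% of its short-arm bases inside input peaks, whereas the other 5 H3K27me3 libraries had 3.84% to 5.10%. In the short arms its bases matched those of the HHZ input with a Jaccard index (shared bases over all bases covered by either list) of 0.275, but those of HHZ H3K27me3 replicates 1 and 2 with only 0.0809 and 0.0908. Whether it carries the mark that its label gives is not settled by these lists, so values over 3 HHZ libraries of H3K27me3 rest on the label, and the main results are given with and without it. The input lists also thinned out in the short arms, from 19.3% to 3.30% of the sequence in HHZ and from 19.0% to 3.09% in JZ1560. Peak calling from 51-bp single reads depends on how much of a repeat-rich arm can be mapped, and the part of mappability in the results below was not tested. The depth of each library is unknown, because peak lists give no read counts.

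Active marks were scarce in both short arms and in both cultivars. H3K36me3 covered 5.73% of the short arms and 21.4% of the long arms in HHZ, and 6.76% and 23.8% in JZ1560. H3K4me3 covered 2.57% of the short arms in HHZ, against 10.9% of the long arms. In JZ1560, H3K4me3 covered 2.82% and 5.48% of the short arms in replicates 1 and 2, against 10.4% and 20.05% of the long arms. Every one of these values in the short arms lay far below its partner in the long arms, although the replicates of 1 mark differed from each other by as much as the cultivars did.

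H3K4me1 covered 2.18% and 2.12% of the short arms in the HHZ replicates and 6.22% and 6.67% in those of JZ1560. The long arms had 9.48% and 9.05% in HHZ and 20.2% and 21.3% in JZ1560. H3K27ac covered 1.13% and 1.12% of the short arms in HHZ, against 4.49% and 4.39% of the long arms. In the single JZ1560 library of H3K27ac the cover was 5.45% and 26.6%. Levels thus differed between the cultivars for H3K4me1 and H3K27ac in both arms. Short-arm cover divided by long-arm cover was 0.230 and 0.235 in HHZ and 0.308 and 0.314 in JZ1560 for H3K4me1. For H3K27ac it was 0.251 and 0.255 in HHZ and 0.205 in JZ1560.

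**Figure D1:**
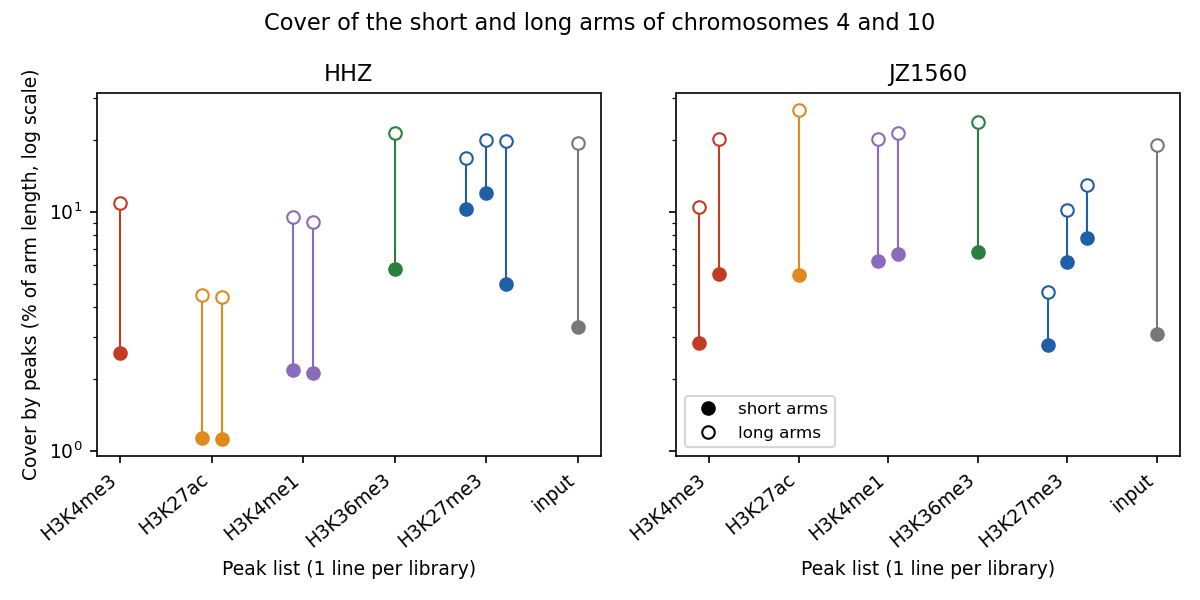
Cover of the short arms (filled circles) and long arms (open circles) by peaks of each library, as % of arm length on a log scale, with 1 vertical line per library, HHZ on the left and JZ1560 on the right. In each of the 20 libraries the filled circle lies below the open one, and the shortest lines are those of the H3K27me3 libraries other than HHZ replicate 3.

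The ratio of short-arm to long-arm cover was 0.261 ± 0.0322 over the active marks (SD, n = 12 libraries), with a range from 0.205 to 0.314. The mean difference was -1.95 on the log2 scale, lower in 12 of 12 libraries, and the exact two-sided sign-flip permutation test gave p = 0.000488281, the smallest that 12 libraries allow (0.00107 after Benjamini-Hochberg adjustment over the 11 tests made here). Libraries share the same arms, so this p speaks of the libraries and not of arms in general. Input cover fell further still, to ratios of 0.171 in HHZ and 0.163 in JZ1560. With every peak that shares a base with its own cultivar's input left out, the difference of the active marks was -1.17 on the log2 scale, again lower in 12 of 12 libraries.

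The fall from long to short arm was steeper on chromosome 4. The active-mark ratio was 0.186 ± 0.0256 on chromosome 4 and 0.402 ± 0.0451 on chromosome 10 (SD, n = 12 libraries each). The 12 values of chromosome 4 ran from 0.139 to 0.222 and those of chromosome 10 from 0.334 to 0.469, so they did not overlap. The inputs showed the same order, with 0.107 and 0.337 in HHZ and 0.0989 and 0.327 in JZ1560. The ratio also carries the long arm, which had more active cover on chromosome 4. In the short arms alone, H3K36me3 covered 4.52% on chromosome 4 and 7.28% on chromosome 10 in HHZ, and 5.27% and 8.65% in JZ1560. The long arms of the same lists had 24.5% and 17.0% in HHZ and 26.6% and 19.9% in JZ1560. For HHZ H3K27ac the short arms were nearly level, at 1.12% and 1.14% in replicate 1 and 1.07% and 1.18% in replicate 2, and the long arms were at 5.61% and 2.93% and at 5.45% and 2.89%.

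H3K27me3, the Polycomb mark, was reduced less than the active marks. It covered 10.3%, 12% and 4.98% of the short arms in HHZ replicates 1 to 3, against 16.8%, 20.003% and 19.8% of the long arms. In JZ1560 it covered 2.76%, 6.17% and 7.74% of the short arms, against 4.62%, 10.2% and 12.9% of the long arms. The ratios of 5 libraries fell between 0.599 and 0.614, although their cover itself differed by more than 4-fold. The library labelled HHZ replicate 3 stood at 0.252, inside the range of the active marks. Without it the mean ratio was 0.604 ± 0.00634 (SD, n = 5 libraries).

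**Figure D2:**
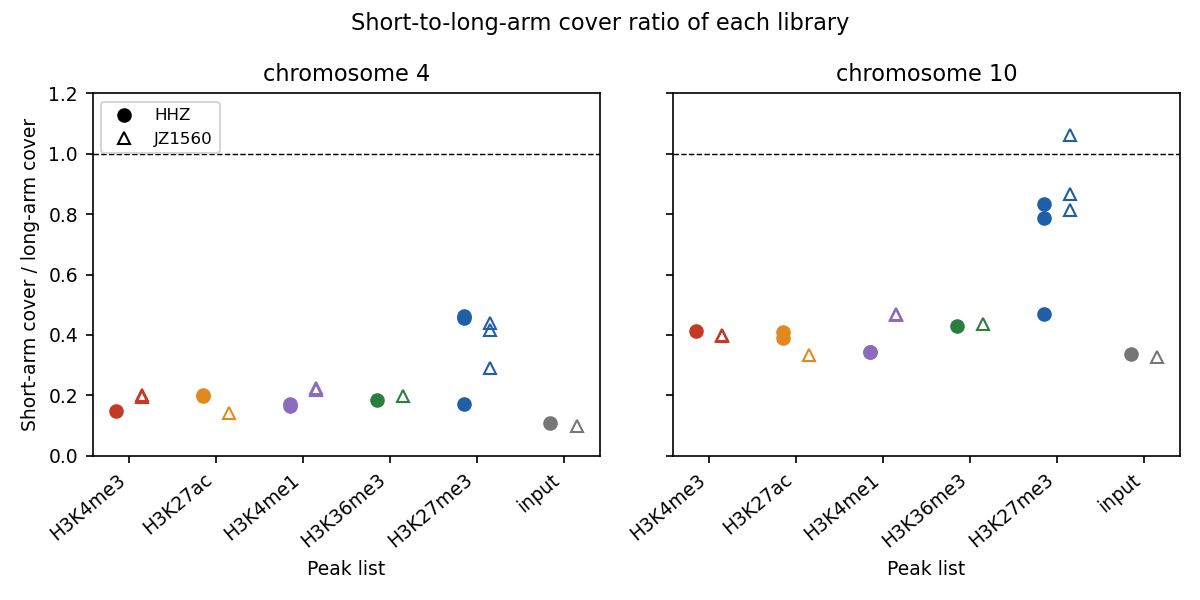
Short-arm cover divided by long-arm cover for each library, on chromosome 4 (left) and chromosome 10 (right), with HHZ as filled circles and JZ1560 as open triangles; the dashed line marks equal cover. Active marks lie at or below 0.222 on chromosome 4 and at or below 0.469 on chromosome 10, and H3K27me3 lies clear of them apart from HHZ replicate 3, at 0.169 and 0.470.

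The short-arm cover of H3K27me3 was lower than its long-arm cover in 6 of 6 libraries, by a mean of -0.94 on the log2 scale, and the exact two-sided sign-flip permutation test gave p = 0.031, the smallest that 6 libraries allow (adjusted p = 0.0430). Without HHZ replicate 3 the mean was -0.73, where 5 libraries cannot give an exact p below 0.0625. Without peaks that overlap input, the difference shrank to -0.26 (exact permutation p = 0.5). The ratios of single libraries were then 1.06, 1.03 and 0.398 in HHZ and 0.749, 1.01 and 1.02 in JZ1560. In 4 of the 6 libraries the peaks that stayed thus covered as much of the short arms as of the long arms. The filter drops whole peaks and took more from the long arms, where input covered more of the sequence. In HHZ replicate 1 it cut long-arm cover from 16.8% to 8.53% and short-arm cover from 10.3% to 9.08%. Level cover after the filter is therefore not level cover of the mark. The active marks still had ratios from 0.327 to 0.602 under that filter.

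The ratio of H3K27me3 exceeded that of the active marks by 1.01 on the log2 scale, which is 2.02-fold, over 6 against 12 libraries (exact two-sided permutation p = 0.000430942, adjusted p = 0.00107). Of the 6 H3K27me3 libraries, 5 lay above each of the 12 active libraries. The gap between the classes was 0.91 without peaks that overlap input and 1.22 without HHZ replicate 3. The test treats libraries of different active marks as exchangeable, and peaks of gene-body marks lie over the same genes.

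On chromosome 10 the 2 arms came close for H3K27me3. Without HHZ replicate 3 the ratio was 0.413 ± 0.0707 on chromosome 4 and 0.872 ± 0.109 on chromosome 10 (SD, n = 5 libraries), and JZ1560 replicate 1 reached 1.06 there. Taken alone, chromosome 10 gave a difference of -0.35 on the log2 scale (exact permutation p = 0.0625, lower in 5 of 6 libraries). The bins from 2.0 to 2.5 Mb and from 2.5 to 3.0 Mb of chromosome 10 were the richest of all short-arm bins, at 24.3% and 24.5% cover in HHZ without replicate 3 and at 15.95% and 16.4% in JZ1560. H3K36me3 covered 7.33% and 9.31% of the same bins in HHZ and 12% and 9.59% in JZ1560. The poorest bin in HHZ, from 3.0 to 3.5 Mb of chromosome 4, had 0.906% H3K27me3 and no H3K36me3, H3K4me3 or H3K4me1 peak, and H3K27ac covered 0.064% of it.

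**Figure D3:**
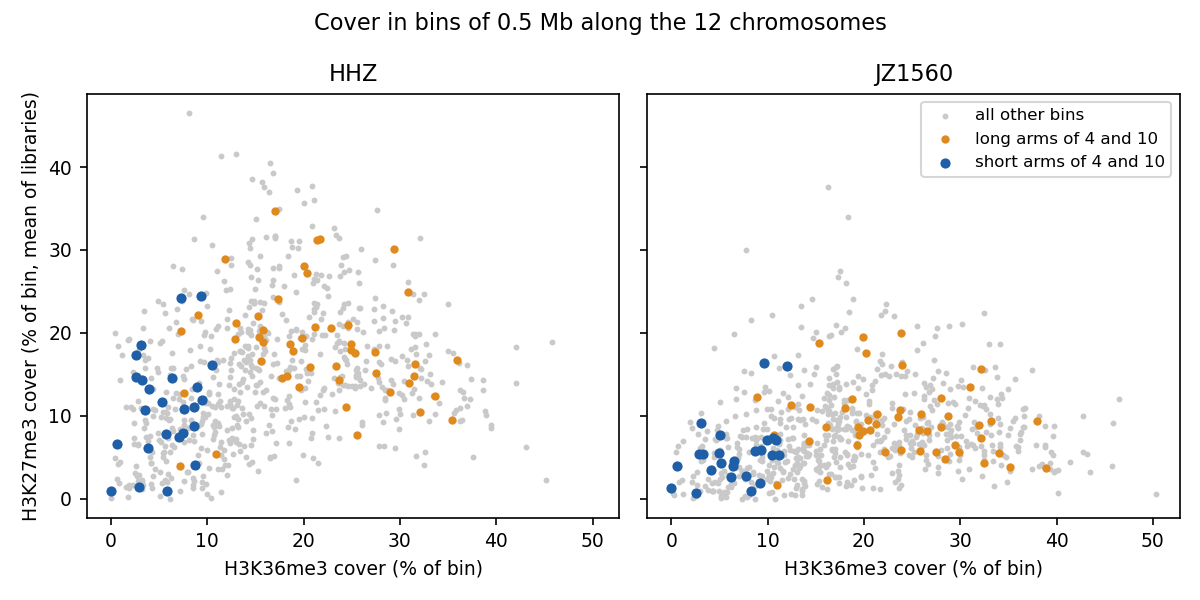
H3K27me3 cover against H3K36me3 cover in the 740 bins of 0.5 Mb along the rice sequences (% of bin), HHZ without H3K27me3 replicate 3 on the left and JZ1560 on the right, with the 25 short-arm bins in blue and the long-arm bins in orange. The blue points sit at the left, where H3K36me3 is at most 10.5% in HHZ and 12% in JZ1560, but spread up to 24.5% and 16.4% in H3K27me3.

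Across the 25 short-arm bins, 7 in HHZ without replicate 3 were above the genome median of H3K27me3 and 10 were below its lower quartile. With all 3 HHZ libraries the counts were 3 and 13. In JZ1560 they were 5 and 10. The short arms were thus mixed for the Polycomb mark and nearly uniform in their lack of the gene-body mark.

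The short-to-long-arm ratio of H3K27me3 was 0.489 ± 0.205 in HHZ and 0.601 ± 0.00284 in JZ1560 (SD, n = 3 libraries each). The difference, -0.41 on the log2 scale, was smaller than the spread of the HHZ libraries (exact two-sided permutation p = 0.8, where 3 against 3 cannot go below 0.1; adjusted p = 0.8). It was 0.01 without HHZ replicate 3, so that library alone set its size and its sign. For H3K4me1 the ratio was 0.232 ± 0.00328 in HHZ and 0.311 ± 0.00386 in JZ1560 (SD, n = 2 libraries each). The H3K4me1 values did not overlap, and the difference was -0.42 on the log2 scale, but 2 against 2 cannot give an exact permutation p below 0.333333, the value found here (adjusted p = 0.367). The other marks had a single library in 1 cultivar or both and were not tested between cultivars.

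Peaks of active marks were slightly narrower in the short arms. The median width of H3K36me3 peaks was 2818 bp against 3329 bp in HHZ and 2790 bp against 3299 bp in JZ1560. H3K4me3 peaks had a median of 1311 bp against 1530 bp in HHZ. Over the 12 active libraries the width ratio was 0.905 ± 0.0539 (SD), and the short-arm median was the smaller in 12 of 12 (mean -0.15 on the log2 scale, exact two-sided sign-flip permutation p = 0.000488281, adjusted p = 0.00107). Input peaks narrowed by a like amount, to ratios of 0.927 in HHZ and 0.890 in JZ1560. Without peaks that overlap input the mean was -0.07, with the short-arm median smaller in 9 of 12 libraries (exact permutation p = 0.0254). The loss of active cover therefore came with fewer peaks more than with narrower ones: the number of active peaks per Mb in the short arms was 0.280 ± 0.0264 of that in the long arms (SD, n = 12 libraries).

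The width of H3K27me3 peaks differed little between the arms. Medians in the short arms were 2462, 2583 and 1447 bp in HHZ and 950, 1871 and 2469 bp in JZ1560. The long arms had 2574, 2692 and 1619 bp in HHZ and 974, 1867 and 2358 bp in JZ1560. The short-arm median was the smaller in 4 of 6 libraries (mean -0.04 on the log2 scale, exact permutation p = 0.3125, adjusted p = 0.367). Libraries of the same cultivar varied more in width than the arms did.

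Gaps between neighbouring peaks were long in the short arms. The median gap of H3K36me3 was 20.4 kb in the short arms and 6.45 kb in the long arms of HHZ, and 18.2 kb and 5.80 kb in JZ1560. HHZ H3K27ac had the longest median gaps, 61.7 and 59.2 kb in its 2 replicates, against 12 kb in both for the long arms. HHZ H3K4me1 had the shortest of the active marks, 4.68 and 5.17 kb, where JZ1560 had 20.5 and 19.5 kb. The HHZ H3K4me1 peaks were also narrower, with short-arm medians of 1029 and 1007 bp against 3033 and 3271 bp in JZ1560. Their shorter gaps therefore do not mean more cover, which was lower in HHZ. The 12 active libraries had gaps 2.96-fold longer in the short arms (mean 1.56 on the log2 scale, longer in 12 of 12, exact two-sided sign-flip permutation p = 0.000488281, adjusted p = 0.00107). The input gaps were 6.34-fold longer in HHZ and 4.99-fold longer in JZ1560. Without peaks that overlap input the difference of the active marks shrank to 0.52 on the log2 scale, longer in 10 of 12 libraries (exact permutation p = 0.0269), and single libraries ran from 0.614-fold to 3.30-fold.

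**Figure D4:**
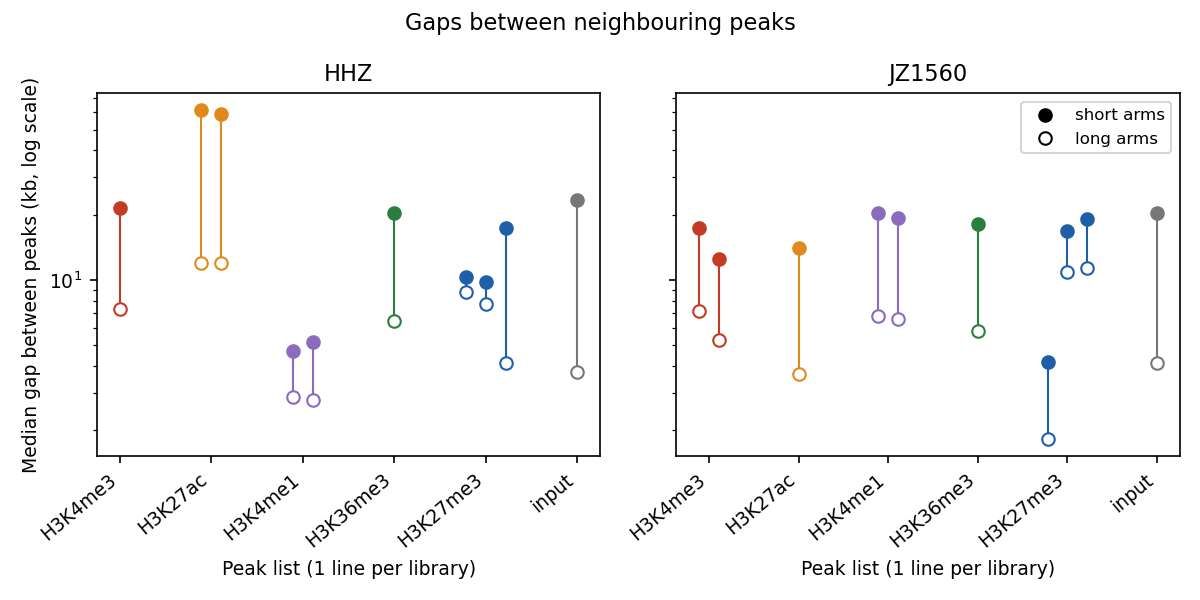
Median gap between neighbouring peaks of each library (kb, log scale) in the short arms (filled) and long arms (open), HHZ on the left and JZ1560 on the right, with 1 vertical line per library. Each filled circle lies above its open partner, and the HHZ H3K27ac libraries reach 61.7 and 59.2 kb.

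For H3K27me3 the gaps were 1.83-fold longer in the short arms (mean 0.87 on the log2 scale, longer in 6 of 6 libraries, exact permutation p = 0.031, adjusted p = 0.0430). HHZ replicates 1 and 2 were nearly level between the arms, at 10.4 against 8.79 kb and 9.78 against 7.69 kb. HHZ replicate 3 went from 4.11 kb to 17.5 kb. JZ1560 replicates went from 1.82 to 4.17 kb, from 10.9 to 16.8 kb and from 11.4 to 19.3 kb. The mean was 0.63 without HHZ replicate 3 and 0.32 without peaks that overlap input (exact permutation p = 0.15625).

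Some stretches held no peak of any of the 18 ChIP lists. Stretches of at least 50 kb numbered 29 in the short arms and took up 2.66 Mb, or 21.3% of them, against 6 stretches and 2.0% of the long arms. On chromosome 4 they filled 28.0% of the short arm and on chromosome 10 they filled 12.7%. The longest was chr4:1452631-1704866, 252 kb without a ChIP peak or an input peak in either cultivar. The next on chromosome 4 were chr4:2943575-3081256 at 138 kb and chr4:7689654-7827125 at 137 kb, with 1 and 2 JZ1560 input peaks and none of HHZ. On chromosome 10 the longest were chr10:3214643-3339647 at 125 kb and chr10:4082775-4192494 at 110 kb, both without input peaks, and chr10:6387637-6483024 at 95.4 kb with 1 JZ1560 input peak. A stretch without input peaks can be one that reads did not reach, and absence of a peak there was not separated from absence of mapped reads.

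The gene-body mark was missing from about 1 Mb of chromosome 4 in both cultivars. The longest H3K36me3-free interval of the short arms was chr4:2514154-3557119 in HHZ and chr4:2514100-3557036 in JZ1560, each 1043 kb, with ends that differ by less than 100 bp between the cultivars. In HHZ the longest interval without H3K4me3 was 1049 kb and overlapped it. In JZ1560 H3K4me1 was missing over 1041 kb of the same interval in both replicates, while H3K4me3 of replicate 1 was missing over 691 kb. In HHZ, H3K4me1 of replicate 1 was missing over 886 kb of it. The longest chromosome 4 gap of HHZ H3K27ac replicate 1, 614 kb, also lay inside it. Some other active libraries had their longest chromosome 4 gap elsewhere. That of JZ1560 H3K4me3 replicate 2 was chr4:1230717-1704866, 474 kb, and that of HHZ H3K4me1 replicate 2 was chr4:1166491-1837904, 671 kb. The replicates of JZ1560 H3K4me3 and those of HHZ H3K4me1 thus did not share the interval in full. H3K27me3 was not absent there: HHZ replicates 1 and 2 together had 28 peaks and a mean cover of 2.69%, and the 3 JZ1560 libraries had 33 peaks and 2.01%. H3K27ac had 16 peaks over both HHZ replicates and 3 in JZ1560. The longest interval with no active peak in any library of either cultivar was chr4:3142173-3555349, 413 kb. These intervals were singled out after their values were seen.

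Within this sparse background, active marks formed isolated islands. Active peaks of a cultivar were joined across gaps of up to 5 kb, and a group counted as an isolated island when it held both H3K4me3 and H3K36me3 and had no other active group within 20 kb on either side. HHZ had 45 islands among 258 peak groups in the short arms, 17.4% of them, where 6.39% of its groups were islands over all rice sequences. JZ1560 had 24 among 324 groups, 7.41%, where its background was 5.21%. The long arms had 26 islands among 933 groups in HHZ and 8 among 761 in JZ1560. The islands thus took a larger share of groups in the short arms than over all sequences in HHZ, and the JZ1560 share was near its background. A rule of 20 kb without another group is met more readily where groups are sparse. HHZ had 20.6 groups per Mb in the short arms and 38.9 in the long arms, and JZ1560 had 25.9 and 31.7. The part of this density in the shares was not tested.

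Islands were densest on chromosome 10. HHZ had 31 on chromosome 10 and 14 on chromosome 4, which is 5.64 and 2 per Mb. JZ1560 had 14 and 10, or 2.55 and 1.43 per Mb. The count depends on the distance asked for: at 50 kb there were 7 in HHZ and 3 in JZ1560, and at 10 kb there were 79 and 77. Leaving out the JZ1560 H3K27ac list gave 38 islands in JZ1560.

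The make-up of the islands was set beside that of islands found by the same rule over all rice sequences, 783 in HHZ and 599 in JZ1560, with no test of a difference. All 4 active marks were present in 13 of the 45 HHZ islands, with a background of 28.1%, and in 13 of the 24 JZ1560 islands, with a background of 61.4%. An input peak overlapped 25 islands in HHZ and 13 in JZ1560, where the background was 58.2% and 52.4%. H3K27me3 peaks, without HHZ replicate 3, overlapped 9 and 5 of them, where the background was 26.1% and 23.7%. These counts were close to their backgrounds.

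Most islands held active peaks of both cultivars, as most islands of the genome did. Of the 45 HHZ islands 39 held one of JZ1560, against a background of 96.3%, and of the 24 JZ1560 islands 16 held one of HHZ, against 78.5%. No ChIP peak of the other cultivar lay in 5 HHZ islands, where the background was 3.32%, and in 4 JZ1560 islands, where it was 15.7%. In 10 places an island of one overlapped an island of the other.

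The 5 islands named per cultivar were those with the most marks, then the most libraries, then the most covered length. The first of HHZ was chr10:3393896-3432935, 39.0 kb, with the nearest active groups 32.9 kb to the left and 34.9 kb to the right. H3K36me3 covered 74.9% of it, H3K4me1 25.1%, H3K4me3 6.67% and H3K27ac 2.98%, and JZ1560 active peaks covered 85.5%. Broad H3K36me3 beside narrow H3K4me3 is the usual layout over transcribed genes. The second, chr4:5288720-5306922, was 18.2 kb long with 78.0% H3K36me3, and JZ1560 had its own island at chr4:5291128-5307030 with 71.4% H3K36me3 and 95.1% H3K4me1.

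The third HHZ island, chr4:6902890-6914961, had no other active group for 208 kb on its left, but the nearest on its right lay 25.5 kb away. H3K36me3 covered 37.9% of its 12.1 kb, and 5 JZ1560 active libraries also had a peak in it. On chromosome 10, chr10:1085628-1097313 had 49.5% H3K36me3 and 26.1% H3K4me3 with 42.3% of its length under input peaks. The fifth, chr10:1007931-1013463, was 5.53 kb long and 79.3% H3K36me3, and 67.6% of it lay under input peaks. No H3K27me3 peak of any HHZ library touched the third and the fourth.

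In JZ1560 the first island was chr10:2178837-2206350, 27.5 kb long, with H3K36me3 over 62.4%, H3K4me1 over 54.7%, H3K27ac over 36.5% and H3K4me3 over 31.7%. HHZ had an island of 25.7 kb at chr10:2179032-2204689, and its left neighbour lay 292 kb away, where the JZ1560 one lay 26.3 kb away. The others were chr10:3462583-3478726 at 16.1 kb, chr10:5631893-5647101 at 15.2 kb and chr10:4831549-4841981 at 10.4 kb, beside the chromosome 4 island above. H3K36me3 covered 72.4%, 62.7% and 75.1% of these 3, and H3K27me3 touched the first of them at 5.84% mean cover. HHZ active peaks covered 39.2%, 68.0% and 73.1% of their length.

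The widest H3K36me3 peak of chromosome 4 was nearly the same in the cultivars, chr4:5608376-5628857 in HHZ at 20.5 kb and chr4:5608326-5628955 in JZ1560 at 20.6 kb. On chromosome 10 the widest were chr10:3402802-3421138 at 18.3 kb in HHZ and chr10:3402754-3429797 at 27.0 kb in JZ1560, inside the first HHZ island. The widest JZ1560 H3K4me1 peaks, chr4:5609329-5630296 at 21.0 kb and chr10:3403564-3432361 at 28.8 kb, lay over the same places. In HHZ the widest H3K4me1 peaks were much shorter, 5.82 kb at chr4:5802509-5808323 and 7.19 kb at chr10:1193466-1200653, and each was covered in full by JZ1560 H3K4me1 peaks.

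The widest H3K4me3 peaks measured 2.82 kb at chr4:4543538-4546360 and 2.80 kb at chr10:2191288-2194086 in HHZ, and 6.05 kb at chr4:2479789-2485835 and 3.63 kb at chr10:3974737-3978363 in JZ1560. For H3K27ac they were 4.23 kb at chr4:7930447-7934675 and 5.54 kb at chr10:5716754-5722291 in HHZ. Both of these HHZ peaks lay entirely under input peaks, and the part of input in them was not tested. H3K4me1 and H3K36me3 of HHZ covered 0% of both. H3K27me3 of HHZ covered 66.7% of the one on chromosome 4 and 100% of the one on chromosome 10, as means with replicate 3 included. H3K4me3 of HHZ covered 0% of the one on chromosome 4 and 52.2% of the one on chromosome 10, and JZ1560 H3K27ac covered 0% and 58.7%. In JZ1560 the widest H3K27ac peaks, chr4:2479918-2486859 at 6.94 kb and chr10:6016454-6021700 at 5.25 kb, were under input for 44.4% and 48.8% of their length.

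The widest H3K27me3 peaks were broad Polycomb domains with few input bases. HHZ replicate 2 had 39.0 kb at chr10:2399209-2438242, with 3.08% under input, and 19.7 kb at chr4:1813122-1832794 with none. Each of the 3 JZ1560 libraries also had the mark there, over 49.5% to 80.9% of the chromosome 10 domain and 26.3% to 71.5% of the chromosome 4 domain. Within HHZ, cover of the chromosome 10 domain was 99.0% in one of the other replicates and 5.71% in the other. JZ1560 replicate 3 had 26.4 kb at chr10:3007152-3033572 and 11.3 kb at chr4:1813545-1824818, which lies within the HHZ domain of chromosome 4.

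The shares of active marks that lay over one another were mostly of similar size in the short and long arms, although the cover was not. In HHZ 80.4% of the H3K4me3 bases in the short arms were inside H3K36me3 peaks and 82.2% in the long arms, and in JZ1560 the mean was 70.0% and 74.6% over 2 libraries. For H3K4me1 inside H3K36me3 the means were 80.1% and 82.8% in HHZ and 72.2% and 78.2% in JZ1560. Since H3K36me3 covered less of the short arms, these shares stood further above its cover there. The share divided by the cover of the second mark in the same arms, called the fold below, was 14.03 in the short arms and 3.85 in the long arms for H3K4me3 in HHZ, and 10.4 and 3.14 in JZ1560. For H3K4me1 it was 13.96 and 3.88 in HHZ and 10.7 and 3.29 in JZ1560. H3K27ac of HHZ had the lower share in the short arms, with 19.8% of its short-arm bases inside H3K4me3 against 34.1% in the long arms, and in JZ1560 the shares were 53.5% and 47.3%. The fold was nevertheless higher in the short arms in both, at 7.69 against 3.13 in HHZ and 13.3 against 3.19 in JZ1560. Input peaks held 50.4% and 49.2% of the HHZ H3K27ac bases in the short arms and 52.5% and 51.6% in the long arms.

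H3K27me3 and H3K36me3 hardly overlapped. Of the H3K27me3 bases in the short arms, 1.15% lay inside H3K36me3 in HHZ without replicate 3 and 0.719% in JZ1560. The long arms had 3.03% and 3.58%. HHZ replicate 3 had 25% inside H3K36me3 in the short arms and 35.1% in the long arms. Relative to the cover of H3K36me3, the fold was 0.200 in the short arms and 0.142 in the long arms in HHZ without replicate 3, and 0.106 and 0.1505 in JZ1560. In JZ1560, H3K27ac peaks took in 20.7% of the H3K27me3 bases in the short arms, where H3K27ac covered 5.45% of the sequence, and 25% in the long arms, where it covered 26.6%. That share was 3.79-fold the cover of H3K27ac in the short arms (3.59 to 4.06 over the 3 H3K27me3 libraries) and 0.937-fold in the long arms. In HHZ without replicate 3 the shares were 3.57% and 4.25% and the folds were 3.18 and 0.958. The fold of H3K27me3 inside input peaks was also higher in the short arms. It was 1.36 against 0.803 in HHZ without replicate 3 and 1.30 against 0.839 in JZ1560. Inside H3K4me3 it was 0.886 against 0.461 and 1.06 against 0.613. The part of the lower short-arm cover in these folds was not tested.

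Lists of the 2 cultivars matched less well in the short arms. The Jaccard index was 0.674 for H3K36me3 in the short arms and 0.819 in the long arms. For H3K4me3 the mean over pairs of libraries was 0.437 and 0.556, and for H3K4me1 it was 0.286 and 0.417. For H3K27ac it was 0.0516 and 0.0993, and for H3K27me3 without HHZ replicate 3 it was 0.392 and 0.439. The 2 input lists fell from 0.330 to 0.165. The part of the lower short-arm cover in these indices was not tested. Replicates within a cultivar were as alike in the short arms for H3K27ac of HHZ, 0.709 against 0.679, and nearly so for H3K4me1, 0.762 against 0.797. For H3K27me3 without HHZ replicate 3 the mean over replicate pairs was 0.573 against 0.575. The 2 JZ1560 replicates of H3K4me3 matched at only 0.504 against 0.517. Their long-arm value was thus below the mean between cultivars, 0.556.

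A larger share of active peaks was found in 1 cultivar only. A peak was counted as cultivar-only when it shared no base with a peak of the same mark in the other cultivar. In HHZ, 30 of 234 H3K4me3 peaks of the short arms were cultivar-only, 12.8% (95% Wilson interval 9.13% to 17.7%), against 2.60% in the long arms and a background of 3.63% over all sequences. For H3K36me3 it was 33 of 205, 16.1% (95% Wilson interval 11.7% to 21.7%), against 3.83% and a background of 4.8%. For H3K4me1 the mean over 2 libraries was 12% against 3.73%, with a background of 4.2%. For H3K27ac it was 68.0% against 33.5%, with a background of 40.5%. These intervals cover counting error only.

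In JZ1560 the cultivar-only share of H3K4me3 was 39.2% in the short arms and 24.6% in the long arms (background 26.8%). For H3K36me3 it was 29.0% and 14.4% (background 17.1%), for H3K4me1 44.0% and 23% (background 25.7%), and for H3K27ac 88.7% and 76.4% (background 76.7%). Over the 12 active libraries the share was 17.2 percentage points higher in the short arms, higher in 12 of 12 (exact two-sided sign-flip permutation p = 0.000488281, adjusted p = 0.00107). A peak meets one of the other cultivar by position alone more often where that cultivar's peaks cover more. They covered more of the long arms, as with JZ1560 H3K27ac at 26.6% against 5.45%. The part of cover in these shares was not tested, for active marks or for H3K27me3.

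**Figure D5:**
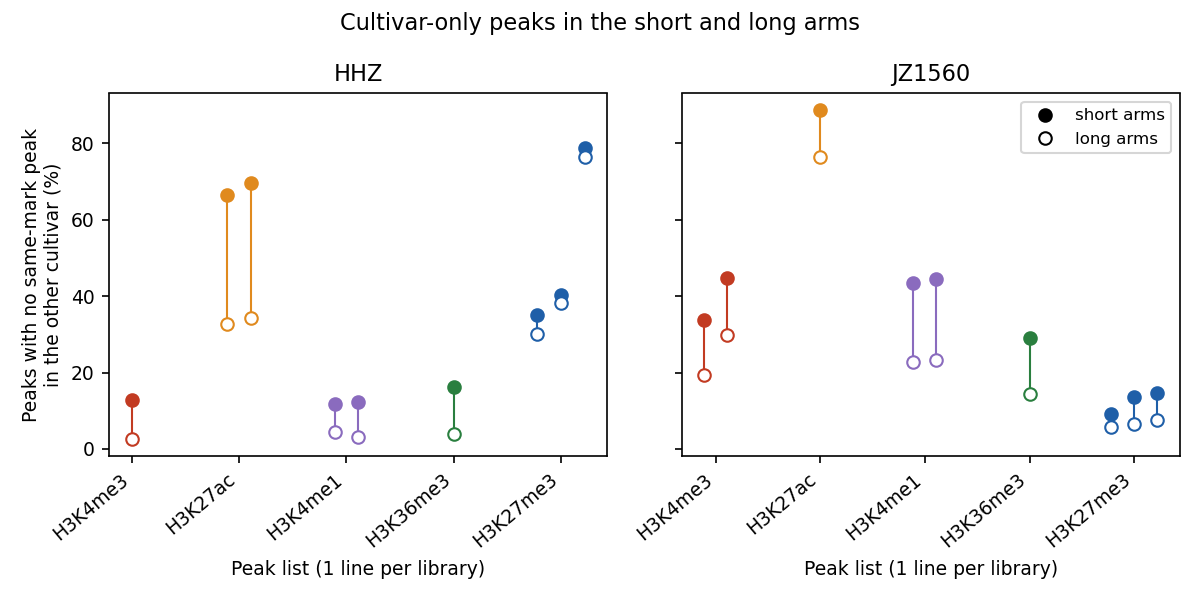
Share of peaks with no same-mark peak in the other cultivar (% of peaks), per library, in the short arms (filled) and long arms (open), HHZ on the left and JZ1560 on the right. Filled circles lie above open ones in each library, by 1.88 percentage points at the least for HHZ H3K27me3 replicate 2.

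The direction of this result turned with the treatment of input. When peaks that overlap their own cultivar's input were removed from both lists before they were compared, the share of active cultivar-only peaks was lower in the short arms by a mean of -7.21 percentage points (exact permutation p = 0.00146, lower in 11 of 12 libraries). Such a filter also takes away partners of peaks that stay, and more often in the long arms, where more peaks overlap input. When the filter was applied only to the counted peaks and the other cultivar's lists were kept whole, the difference was 11.3 percentage points, higher in 12 of 12 libraries (exact permutation p = 0.000488281). The second form of the filter was added after the data were seen.

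H3K27me3 showed a small difference of the same kind. The cultivar-only share in HHZ was 34.9%, 40.2% and 78.8% of short-arm peaks in replicates 1 to 3, against 30.1%, 38.3% and 76.4% in the long arms. The background of 55.3% for the 3 lists summed combines shares of 28.8%, 37.4% and 78.8% over all sequences, and replicate 3 has the most peaks of the 3. Replicates 1 and 2 thus stood above their own background in the short arms and replicate 3 stood level with it. In JZ1560 the share was 9.03%, 13.7% and 14.7%, against 5.82%, 6.63% and 7.51% in the long arms and a background of 8.82%. The mean difference was 4.44 percentage points, higher in 6 of 6 libraries (exact two-sided sign-flip permutation p = 0.031, adjusted p = 0.0430), and 4.56 points without HHZ replicate 3, where 5 libraries cannot give an exact p below 0.0625. It was -12.4 points with input-overlapping peaks removed from both lists (exact permutation p = 0.031) and -1.82 points on chromosome 10 alone (exact permutation p = 0.0625), so neither its direction nor its call held under these settings.

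Windows of 1 kb gave a count that asks all libraries of a cultivar to have a mark. A window was cultivar-only when a peak touched it in each library of one cultivar and in none of the other. For H3K27me3, 65 of 2759 marked short-arm windows, 2.36%, were HHZ-only, near the background of 3.2%, and 35, 1.27%, were JZ1560-only, near the background of 1.1%. Without HHZ replicate 3 the HHZ-only windows were 544 of 2094, 26.0% against a background of 20.6%, and the JZ1560-only windows 36, 1.72% against 1.98%. For H3K4me1, 494 of 1110 windows were JZ1560-only, 44.5% against a background of 34.9%, and 37 were HHZ-only, 3.33% against 1.27%. H3K4me1 peaks were wider in JZ1560 than in HHZ, and the part of peak width in these counts was not tested.

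The longest HHZ-only run of H3K27me3, taken without replicate 3, was chr4:2220001-2240000, 20 kb. No peak of any of the 9 JZ1560 ChIP lists and no input peak of either cultivar lay in it. H3K27me3 covered 62.0% of it over the 3 HHZ libraries, replicate 3 included, and H3K27ac 5.26%. The next were chr4:2393001-2400000 and chr4:5950001-5957000, 7 kb each, also without a JZ1560 ChIP peak, and a JZ1560 input peak covered 17.0% of the latter. H3K27ac of HHZ covered 18.9% and 11.8% of them. JZ1560-only runs were short. The 3 longest were chr4:3296001-3299000 and chr10:3744001-3747000 at 3 kb and chr4:1451001-1453000 at 2 kb, with H3K27me3 cover of 62.4%, 72.9% and 65.4% and no HHZ ChIP peak or input peak. JZ1560 active marks covered 0% of the first. The run on chromosome 10 also had 48.1% H3K27ac, 23.8% H3K36me3 and 18.6% H3K4me3 in JZ1560. The last had 51.7% H3K27ac and 16.6% H3K4me3.

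For H3K4me1 the longest runs were those of JZ1560. In chr10:2045001-2057000, 12 kb, JZ1560 had 97.8% H3K4me1 and 85.6% H3K36me3, and JZ1560 input peaks covered 21.9% of it. There HHZ had no active peak but H3K27me3 over a mean of 20.4% of the run (n = 3 libraries, replicate 3 included). At chr10:2479001-2488000, 9 kb, JZ1560 had 94.0% H3K4me1, 84.9% H3K36me3 and 34.6% H3K27ac. JZ1560 also had 7.42% H3K27me3 in this run, where it had 0% in the run of 12 kb. HHZ had no active peak but 28.0% H3K27me3 in the run of 9 kb. At chr10:3468001-3478000, 10 kb, HHZ had no H3K4me1 peak but 55.2% H3K36me3, and HHZ input peaks covered 26.4% of it. The HHZ-only runs of H3K4me1 were 3 kb each, at chr4:7356001-7359000, chr10:1885001-1888000 and chr10:5126001-5129000, and HHZ input peaks covered 85.0% and 100% of the last 2.

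Peaks of both cultivars were given on 1 set of coordinates. A sequence that one cultivar lacks, or that differs enough to stop its reads from mapping, would leave the same empty list as an unmarked sequence, and the 2 cannot be told apart from these lists. No gene was placed on these coordinates and no sequence was read from them, since no genome of their build was used here.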

How the data were processed

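The authors' peak lists were called with MACS, 1 list per library, per the file headers. Scores, which the authors deposited with each interval, ran from 50 to 3233 over the rice lists on an undefined scale. Tools listed in the submitters' processing notes were BWA, FastQC, HTSeq and TopHat2, without roles. Genome build, control library and peak threshold: not given in the sources used here. Overlapping peaks of a list were merged; cover, median width and median gap were taken per arm, and scores served only as a filter. A shared base (1 bp) counted as overlap. Ratios were compared on the log2 scale with exact two-sided permutation tests (libraries between groups, or sign-flips within libraries), adjusted over 11 tests, with Python 3.11.15, numpy 2.4.6 and scipy 1.17.1; the steps were tested on simulated data. Named regions were the widest peak per mark, cultivar and arm, the 5 islands per cultivar with the most marks, libraries and covered length, the 3 longest cultivar-only runs per direction, and the 3 longest ChIP-free stretches per arm. Arms, members and rules were chosen with earlier results of these data known. Alternatives were a score of 100 or more, no input-overlapping peaks, equal peak numbers, single chromosomes, 50% overlap, isolation of 50 or 10 kb, and leaving out each library. Wheat lists and the RNA table, whose gene IDs carry no position, were not used here.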

Additional observations from a re-analysis of the deposited data

Results flagged for a closer look

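HHZ H3K27me3 replicate 3 had a short-to-long-arm cover ratio of 0.252, while the other 5 H3K27me3 libraries lay between 0.599 and 0.614. Its ratio of median gaps was 4.25, while the others lay between 1.18 and 2.29. Both values stood far enough from the other 5 to be marked by Dixon's criterion for 6 libraries, which marks about 1 group in 20 by chance; the 6 libraries mix both cultivars. The same library had 35.9% of its short-arm bases inside input peaks and 25% inside H3K36me3 peaks. In the short arms it matched the HHZ input at a Jaccard index of 0.275 and HHZ H3K27me3 replicates 1 and 2 at 0.0809 and 0.0908, so whether it carries the mark its label gives is not settled. Its part in the results was measured by leaving it out.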

How the results depend on the processing

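Of 222 recomputed values, 160 kept their direction and call or stayed close in count. Without peaks that overlap input, H3K27me3 differences were -0.26 (cover), 0.0531 (width) and 0.32 (gap) on the log2 scale, cultivar-only shares -7.21 (active) and -12.4 percentage points (H3K27me3), JZ1560-only H3K27me3 windows 62 and HHZ-only H3K4me1 windows 114. On chromosome 10 alone H3K27me3 gave -0.35 (cover), 0.0681 (width), 0.44 (gap) and -1.82 points (share), with 14 JZ1560 islands and 36, 16, 20 and 290 windows (H3K27me3 HHZ-only, JZ1560-only, then H3K4me1 in that order). On chromosome 4 alone H3K27me3 width gave -0.14, islands 14 and 10, and windows 29, 19, 17 and 204; counts fall here because 1 chromosome was used. At a score of 100 or more H3K27me3 width gave -0.0562 (exact permutation p = 0.031), JZ1560 islands 38, H3K27me3 windows 23 and 21, and HHZ-only H3K4me1 windows 11. Equal peak numbers gave 21 HHZ-only H3K27me3 and 24 HHZ-only H3K4me1 windows. With 50% overlap the H3K27me3 share was 4.28 points (exact permutation p = 0.0625), and windows were 38, 23 and 19 (H3K27me3 HHZ-only, JZ1560-only, H3K4me1 HHZ-only). Islands were 7 and 3 at 50 kb and 79 and 77 at 10 kb. The input filter on counted peaks alone, chosen after seeing the data, gave an H3K27me3 share of 3.62 points (exact permutation p = 0.0625). Except where stated, the cause was not tested.

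Leaving out 1 library at a time gave -0.63 to 0.0139 for the H3K27me3 cultivar difference (positive only without HHZ replicate 3), -0.44 to -0.41 for H3K4me1, 0.96 to 1.22 between mark classes, and for active marks -1.97 to -1.92 (cover), -0.16 to -0.13 (width), 1.49 to 1.64 (gap) and 15.4 to 18 points (share). H3K27me3 gave -0.99 to -0.73 (cover), -0.06 to -0.02 (width), 0.63 to 1.002 (gap) and 2.40 to 5.39 points (share), where 5 libraries cannot give an exact permutation p below 0.0625. Islands were 45 to 47 in HHZ and 24 to 38 in JZ1560 (38 without the H3K27ac list). HHZ-only H3K27me3 windows were 68 to 544 (544 without HHZ replicate 3, 121 without replicate 1) and JZ1560-only 35 to 114 (114 without JZ1560 replicate 1), and H3K4me1 windows 37 to 54 and 520 to 565. Leaving out the only list of a mark was not run for islands that need it or for shares. Replicate numbers did not pair the libraries (same-number correlations 0.372, -0.290, 0.305 for H3K27me3 and -0.0147 for H3K4me1); with a replicate block the cultivar differences stayed -0.41 (exact permutation p = 0.75) and -0.42 (exact permutation p = 0.5). Depth behind a missing peak is unknown in all lists.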
